A study of Mus musculus with 6 samples.

Results

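The insulin-like growth factor (IGF) axis was examined in resting bone-marrow-derived macrophages (BMDMs), the macrophages that form when bone marrow cells are cultured with macrophage colony-stimulating factor (M-CSF). Its members were taken by gene symbol from the gene table and comprised 2 ligands (*Igf1*, *Igf2*), 2 receptors (*Igf1r*, *Igf2r*) and 6 binding proteins (*Igfbp2* to *Igfbp7*), so that 10 of the 22248 listed genes were members. The control BMDMs came from Lyz2cre mice (3 libraries) and the CITED2-deficient BMDMs from Cited2 fl/fl:Lyz2cre mice (3 libraries). All mice were C57BL/6 and labelled as postnatal week 10, and both groups carried Cre recombinase under the *Lyz2* promoter, which is active in myeloid cells. Deletion of *Cited2* was therefore restricted to cells that express *Lyz2*, and other cells of the culture would keep the gene. No sample was given an inflammatory stimulus. The labels do not say whether each library came from a separate mouse or culture, so the p-values measure the spread between these libraries, which may be technical.

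IGF1 is a growth and survival factor that macrophages secrete into the tissue around them. It acts through the receptor tyrosine kinase IGF1R, which recruits the insulin receptor substrate adaptors and drives the PI3K-AKT and RAS-ERK cascades. IGF2R, also known as the cation-independent mannose 6-phosphate receptor, carries lysosomal enzymes to the lysosome and removes IGF2 from the cell surface. The IGF-binding proteins hold the ligands in the extracellular fluid, and proteases that cleave them release the ligands again.

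Expression was measured as FPKM (fragments per kilobase of transcript scaled to library size), which corrects for transcript length and depth. Where 3 values are given for a group, they are those of replicates 1, 2 and 3 in that order. *Cited2* itself was 71.7, 79.3 and 75.5 FPKM in control BMDMs and 9.27, 7.22 and 7.53 FPKM in the 3 CITED2-deficient libraries, so every library matched its labelled genotype. The control libraries held 17289286 to 18952077 fragments, and the CITED2-deficient libraries held 22583995 to 26100410. All 9 macrophage markers were detected in every library, with summed levels of 5820 to 5890 FPKM in control and 5470 to 5550 FPKM in CITED2-deficient BMDMs. Within that list 5 genes were lower and 1 (*Fcgr1*) was higher (5 and 3 with median-ratio scaling), and *Lyz2*, whose locus carries Cre, went from 30.6 to 32.5 FPKM in control libraries to 9.39 to 10 FPKM in CITED2-deficient libraries. Genes with a mean of at least 1 FPKM (11687 genes) were compared as log2(FPKM + 1) with limma, and a Benjamini-Hochberg adjusted p under 0.05 was the threshold. Fold changes are on this log2 scale, which understates changes of genes with low FPKM. Over the 11687 tested genes the log2 fold change had a median of -0.10, which became -0.007 when the libraries were scaled by median ratios, so that small falls have to be read against that shift.

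IGF axis transcripts were unevenly spread in BMDMs and moved in both directions without CITED2. *Igf1*, *Igf1r* and *Igfbp4* fell, whereas *Igf2r* and *Igfbp7* rose. The other members, *Igf2*, *Igfbp2*, *Igfbp3*, *Igfbp5* and *Igfbp6*, had a mean below 1 FPKM and were not tested. All 5 tested members passed the threshold (limma), at a background of 51.3% of all tested genes. The 2 that rose stand against 16.7% of all tested genes, and the 3 that fell against 34.6%. With an added fold change of at least 2, *Igfbp4* and *Igfbp7* were called, against 5.26% of all tested genes. The control and CITED2-deficient libraries did not overlap for any of the 5 tested members, against 59.9% of all tested genes, and *Igfbp5* was the other member without overlap. The median log2 fold change of the 5 tested members was -0.36, with values from -1.67 to 1.70. BMDM RNA was measured in bulk, so fewer cells of a type and less RNA per cell cannot be told apart in any of these values.

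**Figure D1:**
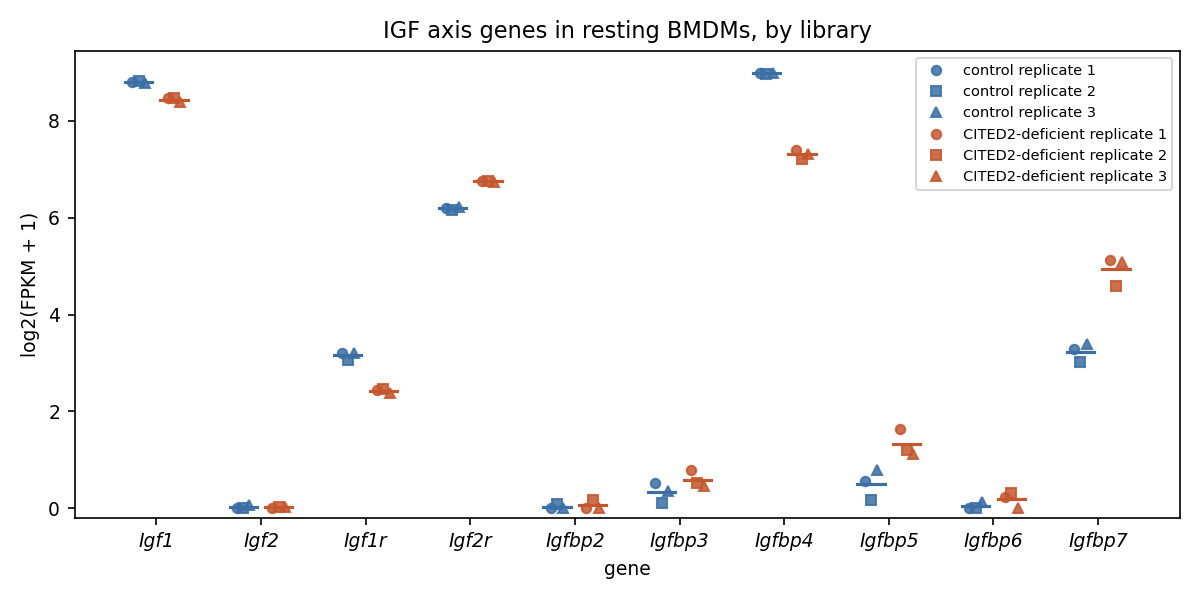
The level of each IGF axis gene, as log2(FPKM + 1), in each of the 6 libraries (points, 3 control in blue and 3 CITED2-deficient in orange, with a bar at the group mean). *Igf1*, *Igf1r* and *Igfbp4* are lower and *Igf2r*, *Igfbp5* and *Igfbp7* higher in every CITED2-deficient library, while *Igf2*, *Igfbp2* and *Igfbp6* lie near 0 in both groups.

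The promoters of *Igf2r*, *Igfbp4* and *Igfbp7* are printed here because these 3 genes include both members that rose and the member with the largest fall, and 2 of them encode binding proteins that moved in opposite directions. Each is the RefSeq sequence of GRCm38.p6 (the mm10 build) from 250 bases before to 50 bases after the start site, on the strand of the gene. Capitals mark matches to the searched motifs, which were TATAAA, the E-box CACGTG, the core ACGTG of the hypoxia response element, the AP-1 motif TGACTCA, the GAS motif TTCNNNGAA and the interferon-stimulated response element (ISRE), on both strands.
Igf2r promoter, chr17:12769657-12769956, minus strand: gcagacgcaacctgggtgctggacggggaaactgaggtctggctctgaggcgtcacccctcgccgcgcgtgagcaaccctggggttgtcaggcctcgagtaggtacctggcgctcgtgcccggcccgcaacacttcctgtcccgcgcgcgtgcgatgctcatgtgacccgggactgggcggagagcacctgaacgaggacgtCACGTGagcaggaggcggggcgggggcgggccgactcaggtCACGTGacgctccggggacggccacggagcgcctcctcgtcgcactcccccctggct
Igfbp4 promoter, chr11:99040994-99041293, plus strand: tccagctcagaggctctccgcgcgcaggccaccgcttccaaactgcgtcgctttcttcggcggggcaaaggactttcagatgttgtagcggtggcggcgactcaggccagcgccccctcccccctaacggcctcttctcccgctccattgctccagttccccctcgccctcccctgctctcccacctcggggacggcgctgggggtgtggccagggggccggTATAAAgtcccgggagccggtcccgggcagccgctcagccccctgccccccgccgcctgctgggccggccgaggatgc
Igfbp7 promoter, chr5:77407996-77408295, minus strand: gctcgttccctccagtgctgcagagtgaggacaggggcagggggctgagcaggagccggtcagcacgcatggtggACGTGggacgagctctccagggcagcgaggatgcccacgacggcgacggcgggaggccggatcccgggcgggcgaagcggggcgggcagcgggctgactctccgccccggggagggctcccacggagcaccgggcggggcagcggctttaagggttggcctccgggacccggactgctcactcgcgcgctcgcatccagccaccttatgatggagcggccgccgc
The *Igf2r* promoter held 2 CACGTG motifs, which begin at positions -48 and -7 from the start site. CACGTG occurred in 7.15% of all 32851 promoter windows. Since CACGTG contains ACGTG on both strands, these sites also account for the 4 ACGTG matches there. The *Igfbp4* promoter held a TATAAA at -28, a motif found in 13.6% of windows, and no other motif of the list. The *Igfbp7* promoter held 1 ACGTG, at -175, a motif found in 19.6% of windows. The windows of *Igf1* (chr10:87860861-87861160, plus strand) and *Igf1r* (chr7:67952007-67952306, plus strand) held none of the searched motifs. These windows follow RefSeq start sites, whereas the gene coordinates given below are those of GENCODE. The GENCODE start of *Igf1* (87858265) lies before its window and that of *Igf1r* (67952827) after it. Sequence at those 2 GENCODE starts was not searched. TGACTCA, TTCNNNGAA and ISRE, present in 5.2%, 8.3% and 3.44% of all windows, were found in none of the 5 windows of tested members. The windows of *Igf1r*, *Igf2r*, *Igfbp4* and *Igfbp7* had a GC content of 76.0%, 70.7%, 71.3% and 73.3%, and that of *Igf1* 52.3%. These matches describe the letters of the windows and say nothing of whether a factor binds there.

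Of the ligands, *Igf1* was an abundant transcript and *Igf2* was at the limit of detection. *Igf1* (ENSMUSG00000020053, chr10:87858265-87937042, plus strand) was 446, 450 and 442 FPKM in control BMDMs and 355, 353 and 333 FPKM in the 3 CITED2-deficient libraries. The groups did not overlap, and *Igf1* ranked 214 in level among the 22248 genes in the control group and 267 in the CITED2-deficient group. The mean went from 446 ± 4.05 (SD, n = 3) to 347 ± 12.4 FPKM (SD, n = 3), a log2 fold change of -0.36 (SE 0.031, adjusted p = 1.53e-05, limma). The fall was -0.26 with median-ratio scaling and -0.27 after quantile normalization, and both values passed the threshold. The gene overlaps *Igf1os*, a gene on the opposite strand. The libraries were stranded, but the sources used here do not say whether the counting used the strand.

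*Igf2* (ENSMUSG00000048583, chr7:142650766-142666816, minus strand), the imprinted ligand that is best known from the fetus, gave 0, 0 and 2 fragments in control BMDMs and 0, 1 and 1 fragments in the 3 CITED2-deficient libraries. No library reached 3 fragments, the number a count of 0 still allows, which corresponds to 0.0575 to 0.0868 FPKM. A difference in *Igf2* was therefore not detectable at this depth. Such limits cover counting error only.

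The receptors moved in opposite directions. *Igf1r* (ENSMUSG00000005533, chr7:67952827-68233668, plus strand), the signalling receptor of IGF1, was 8.21, 7.39 and 8.28 FPKM in control BMDMs and 4.45, 4.5 and 4.19 FPKM in the 3 CITED2-deficient libraries. Every CITED2-deficient library was below every control library, on 429 to 527 fragments in control and 341 to 380 in CITED2-deficient libraries. The mean fell from 7.96 ± 0.495 (SD, n = 3) to 4.38 ± 0.167 FPKM (SD, n = 3), a log2 fold change of -0.74 (SE 0.078, adjusted p = 5.65e-05, limma). Among the 11687 tested genes this was the fall at place 415.

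*Igf2r* (ENSMUSG00000023830, chr17:12682406-12769664, minus strand), which clears IGF2 and sorts lysosomal enzymes, was 72.6, 70.6 and 73.4 FPKM in the 3 control libraries. The gene reached 108, 107 and 106 FPKM in the 3 CITED2-deficient libraries. The groups were well separated and the replicates of each group lay close together, at 72.2 ± 1.44 (SD, n = 3) and 107 ± 1.08 FPKM (SD, n = 3). The log2 fold change was 0.56 (SE 0.031, adjusted p = 8.34e-07, limma), and *Igf2r* moved from rank 1641 to rank 1030 in level. *Airn*, the imprinted antisense RNA that starts within *Igf2r* and silences the paternal allele, was 4.31, 4.21 and 4.9 FPKM in control and 4.25, 4.83 and 4.9 FPKM in the 3 CITED2-deficient libraries. *Airn* overlapped between the groups and did not pass the threshold (log2 fold change 0.049, SE 0.092, adjusted p = 0.685, limma), and the same limit on strand holds for this pair of genes.

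Within each library the FPKM ratio of *Igf2r* to *Igf1r* was 8.85, 9.56 and 8.87 in control BMDMs and 24.3, 23.9 and 25.4 in the 3 CITED2-deficient libraries. The insulin receptor gene *Insr*, whose product can pair with IGF1R in hybrid receptors, was 17.2, 16 and 16.9 FPKM in control and 14.8, 13.9 and 13.4 FPKM in the 3 CITED2-deficient libraries. *Insr* was lower by limma (log2 fold change -0.23, SE 0.058, adjusted p = 0.00914), but with median-ratio scaling the value was -0.13 and the adjusted p was 0.0818. The FPKM ratio of *Insr* to *Igf1r* was 2.04 to 2.16 in control libraries and 3.1 to 3.33 in CITED2-deficient libraries. A ratio within a library is not affected by the scaling between libraries.

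Of the binding proteins, *Igfbp4* and *Igfbp7* carried nearly all of the FPKM and changed in opposite directions. *Igfbp4* (ENSMUSG00000017493, chr11:99041244-99054392, plus strand), which encodes a binding protein that blocks IGF action until it is cleaved, was 505, 498 and 511 FPKM in the 3 control libraries. It was 168, 147 and 158 FPKM in the 3 CITED2-deficient libraries, so each CITED2-deficient library was far below each control library. The mean fell from 504 ± 6.44 (SD, n = 3) to 158 ± 10.1 FPKM (SD, n = 3), a log2 fold change of -1.67 (SE 0.044, adjusted p = 5.77e-09, limma). *Igfbp4* had the fall at place 47 among the 11687 tested genes and moved from rank 169 to rank 683 in level.

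*Igfbp7* (ENSMUSG00000036256, chr5:77349240-77408041, minus strand) encodes a secreted protein that binds IGFs with low affinity and is common in vessel walls and stroma. Its level was 8.73, 7.14 and 9.52 FPKM in control BMDMs and 34.1, 23.1 and 33 FPKM in the 3 CITED2-deficient libraries. Replicate 2 was the lowest library of each group, and the groups did not overlap. The mean rose from 8.46 ± 1.21 (SD, n = 3) to 30.1 ± 6.08 FPKM (SD, n = 3), a log2 fold change of 1.70 (SE 0.15, adjusted p = 1.47e-05, limma). This was the rise at place 140 among the 11687 tested genes.

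*Igfbp5* (ENSMUSG00000026185, chr1:72857932-72874884, minus strand), which encodes a binding protein of extracellular matrix, lay just under the FPKM minimum. Its FPKM was 0.484, 0.124 and 0.718 in control and 2.09, 1.31 and 1.16 in the 3 CITED2-deficient libraries, from 11 to 70 and 152 to 273 fragments. All CITED2-deficient libraries were above all control libraries. Without the minimum, which adds genes with low values to the fit (22248 genes, 26.2% of them called), the log2 fold change was 0.81 (SE 0.20, adjusted p = 0.0272, limma). That call was lost when any library other than control replicate 3 was left out, at 0.64 (without control replicate 2) to 0.91 (without CITED2-deficient replicate 3) and adjusted p = 0.0631 to 0.0966 (limma). It held without control replicate 3, at 0.95 (adjusted p = 0.041, limma). Limma-voom on the recovered fragments gave 2.01 (SE 0.39, adjusted p = 0.000271).

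The remaining binding proteins were at or near the limit of detection. *Igfbp3* (ENSMUSG00000020427, chr11:7206086-7213923, minus strand), which encodes the main carrier of IGF1 in serum, was 0.436, 0.084 and 0.281 FPKM in control and 0.724, 0.429 and 0.371 FPKM in the 3 CITED2-deficient libraries. The groups overlapped, and without the minimum the log2 fold change was 0.25 (SE 0.13, adjusted p = 0.229, limma) and limma-voom on the recovered fragments gave 1.06 (SE 0.50, adjusted p = 0.129). *Igfbp2* (chr1:72824503-72852474, plus strand), next to *Igfbp5* on chromosome 1, gave 1 fragment in control replicate 2, 3 in CITED2-deficient replicate 2 and 0 in the other libraries. *Igfbp6* (chr15:102144362-102149511, plus strand), which encodes a binding protein that prefers IGF2, gave 0, 0 and 2 fragments in control and 5, 6 and 0 fragments in the 3 CITED2-deficient libraries. For both genes the groups overlapped, and no difference was detectable at this depth, where 3 fragments correspond to 0.103 to 0.162 FPKM.

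Summed over *Igfbp2* to *Igfbp7*, the binding protein level was 514, 505 and 521 FPKM in control and 205, 172 and 193 FPKM in the 3 CITED2-deficient libraries. The sum without *Igfbp4* moved the other way, from 7.4 to 10.6 FPKM in control libraries to 25.2 to 37.1 FPKM in CITED2-deficient libraries. *Igfbp4* made up 98.2% ± 0.294 (SD, n = 3) of the summed FPKM in control BMDMs and 83.1% ± 1.99 (SD, n = 3) in CITED2-deficient BMDMs, while *Igfbp7* made up 1.65% ± 0.211 (SD, n = 3) and 15.7% ± 2.05 (SD, n = 3). The share of *Igfbp5* was 0.0245% to 0.138% in control and 0.603% to 1.02% in CITED2-deficient libraries. These shares were not tested.

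The order of FPKM levels changed at the top. In control BMDMs the order of mean FPKM was *Igfbp4*, *Igf1*, *Igf2r*, *Igfbp7* and *Igf1r*, of which *Igfbp7* and *Igf1r* overlapped between libraries. In CITED2-deficient BMDMs *Igf1* stood above *Igfbp4*, followed by *Igf2r*, *Igfbp7* and *Igf1r*, and none of these neighbours overlapped. The ratio of *Igf1* to *Igfbp4* FPKM was 0.884, 0.904 and 0.865 in control and 2.12, 2.4 and 2.1 in the 3 CITED2-deficient libraries. Against the summed binding proteins, *Igf1* had a ratio of 0.848 to 0.891 in control and 1.73 to 2.05 in CITED2-deficient libraries. The ratio of *Igf1* to *Igf1r* was 53.4 to 60.9 in control and 78.5 to 79.8 in CITED2-deficient libraries. An order or ratio between genes depends on the mean length of the annotated transcripts, 1963 bases for *Igf1* and 1183 for *Igfbp4*. The same lengths applied to both groups. In fragments, *Igf1* was above *Igfbp4* in control libraries too (15275 to 16553 against 10183 to 11451).

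**Figure D2:**
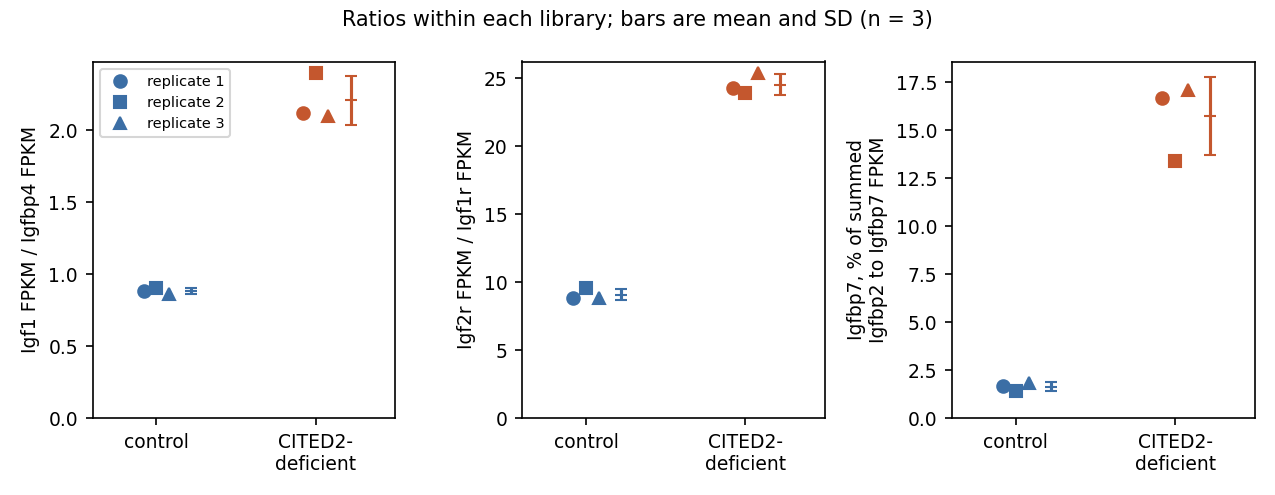
Ratios of FPKM within each library (points) for *Igf1* to *Igfbp4*, *Igf2r* to *Igf1r*, and *Igfbp7* as a percentage of the summed *Igfbp2* to *Igfbp7* FPKM, with the mean and SD of each group (n = 3). In each panel all 3 CITED2-deficient libraries lie above all 3 control libraries, with mean ratios of 2.21 against 0.884 and 24.5 against 9.09 and mean shares of 15.7% against 1.65%.

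Between the groups, the rise of *Igfbp7* and the higher *Igfbp5* values came with higher levels of the tested markers of stromal cells. Stromal cells are known to express both genes, and their part in these values was not tested. Of the 12 fibroblast or stromal markers, 10 were tested and all 10 were higher, against 16.7% of all tested genes. *Postn*, *Fbn1* and *Pdgfrb*, with control means of 0.394, 0.871 and 0.936 FPKM, reached the minimum only through the CITED2-deficient libraries. The untested *Lum* and *Thy1* overlapped between the groups, and the mean of *Lum* was lower (0.162 FPKM in control, 0.0998 FPKM in CITED2-deficient BMDMs). The summed level of the list was 47.6 to 57.3 FPKM in control and 187 to 577 FPKM in CITED2-deficient libraries. No marker of the list was at 0 in all libraries, and CITED2-deficient replicate 1 had the highest sum. The type I collagen gene *Col1a2* was 17.4, 15 and 17.7 FPKM in control and 175, 66.3 and 63.6 FPKM in the 3 CITED2-deficient libraries. The ratio of *Igfbp7* to *Col1a2* was 0.195, 0.348 and 0.519 in the 3 CITED2-deficient libraries and 0.476 to 0.539 in control libraries. The type III collagen gene *Col3a1* was 9.81, 6.37 and 8.44 FPKM in control BMDMs and 45, 29.3 and 30.5 FPKM in the 3 CITED2-deficient libraries, with replicate 2 the lowest of each group, as for *Igfbp7*. The ratio of *Igfbp7* to *Col3a1* was 0.89, 1.12 and 1.13 in control BMDMs and 0.758, 0.787 and 1.08 in the 3 CITED2-deficient libraries, so it overlapped between the groups. *Col3a1* was not the planned reference, and ratios to the other stromal markers were not computed. The 10 tested markers had log2 fold changes from 0.65 (*Pdgfra*) to 2.71 (*Col1a1*), with a median of 1.37, beside 1.70 for *Igfbp7*. Those of *Dcn* (0.78) and *Pdgfrb* (0.82) were also below that of *Igfbp7*. A ratio to 1 collagen gene therefore does not stand for the list. Without CITED2-deficient replicate 1 the log2 fold change of *Igfbp7* was 1.60 (adjusted p = 5.62e-05, limma).

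Other non-macrophage marker lists moved as well, most of them upwards. Of all tested genes 16.7% were higher and 34.6% lower. Both tested bone marrow reticular markers were higher (of 5 in the list, summed 29.3 to 32.8 FPKM in control and 62.1 to 66.7 FPKM in CITED2-deficient libraries). That sum is mostly *Kitl*, with means of 28.3 FPKM in control and 52 FPKM in CITED2-deficient BMDMs. Of the untested reticular markers *Lepr* overlapped between the groups, while *Ebf3* and *Foxc1* did not. The osteoblast list had 2 of 3 tested genes higher (summed 2.38 to 3.56 FPKM in control, and 51.8, 7.57 and 6.79 FPKM in the 3 CITED2-deficient libraries, so the high sum is that of replicate 1). In the smooth muscle list the 1 tested gene, *Acta2*, was higher and carries the sum (12.7 to 14.1 and 35.4 to 54.4 FPKM). The untested *Tagln*, *Cnn1* and *Des* overlapped between the groups, and *Myh11* did not. The endothelial list had 2 of 3 tested genes higher (6 to 6.25 and 27.4 to 32.6 FPKM). Its sum is mostly *Kdr*, with means of 4.26 FPKM in control and 27.5 FPKM in CITED2-deficient BMDMs. *Cdh5*, also called, had a control mean of 0.72 FPKM and reached the minimum only through the CITED2-deficient libraries. The adipocyte list had 2 of 2 tested genes higher, *Fabp4* and *Lipe*, which carry its sum (32.2 to 41.3 and 46.1 to 47.3 FPKM). One of the osteoblast calls, *Alpl*, had a log2 fold change of 2.00 that was 1.03 without CITED2-deficient replicate 1 (adjusted p = 0.00138, limma) and lost its call when any 1 control library was left out (adjusted p = 0.0667 to 0.0844, limma). The untested adipocyte markers went the other way, with 30, 36 and 0 fragments of *Adipoq* and 18, 21 and 1 of *Plin1* in control BMDMs against 0, 0 and 2 and 7, 0 and 0 in the 3 CITED2-deficient libraries. Granulocyte precursor markers were lower in 5 of 7 and higher in 1, with a median log2 fold change of -1.68. Their sum (535 to 572 and 436 to 526 FPKM) is mostly *S100a8* and *S100a9*, whereas *Mpo*, *Elane*, *Prtn3* and *Ctsg*, genes of early granulocyte cells, had log2 fold changes of -2.54, -2.08, -2.12 and -1.68, all past the threshold (limma). None of the 5 lymphocyte markers reached the FPKM minimum (0.896 to 1.81 and 1.22 to 1.65 FPKM). Thus 5 of 7 granulocyte precursor genes fell and 1 (*Csf3r*) rose, and 5 of 9 macrophage markers fell and 1 (*Fcgr1*) rose. *Igf1*, *Igf1r* and *Igfbp4* fell too, as did 34.6% of all tested genes. The part of any of these cells in the values of the IGF axis genes was not tested.

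**Figure D3:**
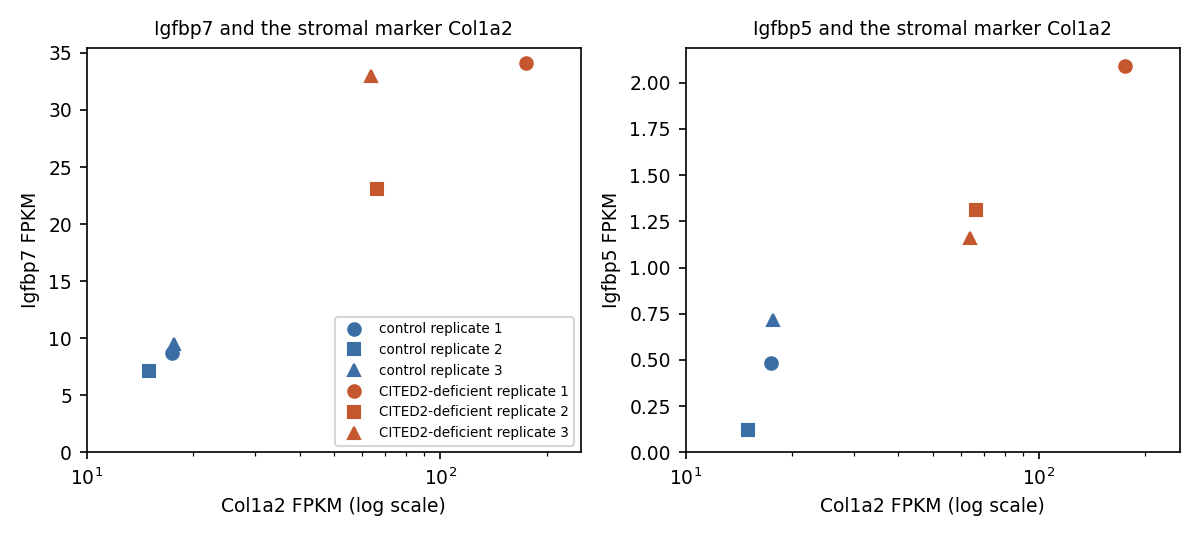
*Igfbp7* and *Igfbp5* FPKM (vertical axes) against the FPKM of the stromal marker *Col1a2* (horizontal axes, log scale) in each of the 6 libraries. CITED2-deficient replicate 1 has the highest *Col1a2*, at 175 FPKM, with an *Igfbp7* level of 34.1 FPKM, close to the 33 FPKM of replicate 3, and the highest *Igfbp5* level, 2.09 FPKM.

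Beyond the members, 65 genes of the IGF pathway were followed, of which 61 were listed and 47 tested. By limma 11 were higher, 20 were lower and 16 did not pass the threshold, beside 16.7% higher and 34.6% lower among all tested genes. The median log2 fold change of the 47 was -0.083 against -0.10 for all tested genes. With median-ratio scaling the split became 15 higher and 8 lower, so the excess of falls in the wider pathway depends on how the libraries are scaled. The large changes of single genes described next kept their direction under both other scalings.

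Some genes that act on binding proteins were among the higher ones. Of 9 binding protein proteases and inhibitors 3 were tested and all 3 were higher, against 16.7% of all tested genes. After quantile normalization 2 were higher and 1 was not called. The serine protease gene *Htra1* was 3.68, 2.65 and 3.24 FPKM in control and 11.7, 7.32 and 8.62 FPKM in the 3 CITED2-deficient libraries (log2 fold change 1.27, SE 0.16, adjusted p = 0.000145, limma). The gelatinase gene *Mmp2*, a stromal metalloprotease, was 1.14, 1.73 and 1.35 FPKM in control and 8.71, 4.42 and 4.63 FPKM in the 3 CITED2-deficient libraries (log2 fold change 1.48, SE 0.21, adjusted p = 0.000427, limma). The lysosomal protease gene *Ctsd* had a log2 fold change of 0.29 (SE 0.033, adjusted p = 8.79e-05, limma), which was 0.039 with an adjusted p of 0.349 after quantile normalization. *Htra3*, related to *Htra1* and the 1 tested gene among other binding proteins and carriers, was 1.04, 0.865 and 0.706 FPKM in control and 3.44, 1.53 and 1.78 FPKM in the 3 CITED2-deficient libraries (log2 fold change 0.76, SE 0.21, adjusted p = 0.0148, limma). With a control mean of 0.871 FPKM, *Htra3* reached the minimum only through the CITED2-deficient libraries.

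As with the tested stromal markers other than *Dcn*, *Htra1*, *Mmp2* and *Htra3* were highest in CITED2-deficient replicate 1. Without that library their log2 fold changes were 1.10, 1.21 and 0.51, all past the threshold (limma).

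*Pappa*, which encodes pregnancy-associated plasma protein A, the protease that cleaves IGFBP4, was below the minimum. Its FPKM was 0.0432, 0.021 and 0.0239 in control and 0.5, 0.325 and 0.313 in the 3 CITED2-deficient libraries, from 4 to 9 and 81 to 140 fragments. The groups did not overlap, and without the minimum the log2 fold change on this scale was 0.42 (SE 0.063, adjusted p = 0.00344, limma). The stanniocalcins, which inhibit that protease, were also low, with *Stc1* at 0.0413 to 0.163 FPKM in control and 0.137 to 0.356 FPKM in CITED2-deficient libraries. *Stc2* was 0.154 to 0.281 FPKM in control and 0.306 to 0.817 FPKM in CITED2-deficient libraries, and neither stanniocalcin gene passed the threshold without the minimum (adjusted p = 0.15 for *Stc1* and 0.0838 for *Stc2*, limma).

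Among genes tied to *Igf2*, *Igf2bp2*, which encodes a protein that binds *Igf2* mRNA, was 18.5, 16.2 and 15.6 FPKM in control and 29.2, 30.8 and 29.3 FPKM in the 3 CITED2-deficient libraries (log2 fold change 0.80, SE 0.065, adjusted p = 1.07e-05, limma). It rose while *Igf2* itself stayed below 3 fragments in every library. *H19*, the imprinted RNA next to *Igf2*, was 0.34, 0.0929 and 0.0848 FPKM in control and 0.98, 1.07 and 0.492 FPKM in the 3 CITED2-deficient libraries. The groups did not overlap for *H19*, whose value without the minimum was 0.65 (adjusted p = 0.0203, limma). These values rest on 8, 2 and 2 fragments in control and 31, 30 and 16 in the 3 CITED2-deficient libraries. Control replicates 2 and 3 were thus below 3 fragments, at the limit of detection.

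Downstream of IGF1R, 8 of 10 adaptor genes were tested, and 2 were higher and 3 lower, beside 16.7% and 34.6% of all tested genes. *Gab1*, which encodes a docking protein for PI3K, was 10.2, 10.3 and 11.2 FPKM in control and 4.3, 4.18 and 3.86 FPKM in the 3 CITED2-deficient libraries (log2 fold change -1.18, SE 0.075, adjusted p = 1.95e-06, limma). *Grb10*, which encodes an adaptor that restrains IGF1R and the insulin receptor, was 1.55, 1.95 and 1.93 FPKM in control and 6.98, 5.07 and 5.24 FPKM in the 3 CITED2-deficient libraries (log2 fold change 1.26, SE 0.13, adjusted p = 4.71e-05, limma). *Gab1* and *Grb10* did not overlap between the groups.

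*Irs2*, the insulin receptor substrate gene that passed the minimum, was 5.3 to 5.7 FPKM in control and 3.61 to 4.33 FPKM in CITED2-deficient libraries (log2 fold change -0.38, SE 0.088, adjusted p = 0.00611, limma). *Irs1* was below the minimum, at 0.038 to 0.104 FPKM in control and 0.271 to 0.568 FPKM in CITED2-deficient libraries, and its value without the minimum was 0.36 (adjusted p = 0.0246, limma). *Grb2*, which links receptors to RAS, was lower by a smaller amount (log2 fold change -0.24, SE 0.036, adjusted p = 0.000548, limma).

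In the PI3K-AKT branch all 22 genes were tested, and 4 were higher, 11 lower and 7 not called. The share of lower genes stands beside 34.6% of all tested genes, and the split turned with median-ratio scaling to 6 higher and 2 lower (5 higher and 8 lower after quantile normalization), so no direction can be given for this branch. *Inppl1*, which encodes the lipid phosphatase SHIP2, rose by 0.68 (adjusted p = 1.77e-06, limma), from 98.9 to 104 FPKM in control to 154 to 172 FPKM in CITED2-deficient libraries. The catalytic subunit gene *Pik3cb* rose by 0.60, whereas the regulatory subunit gene *Pik3r2* had a log2 fold change of -0.43 (adjusted p = 1.97e-05 and 2.1e-05, limma). In the RAS-ERK branch all 10 genes were tested, and none was higher, 5 were lower and 5 were not called. Of all tested genes 51.3% were called and 34.6% were lower, so the count of calls was near the background. Median-ratio scaling gave 1 higher and 3 lower in this branch. The changes of the genes named there were small, at -0.37 for *Araf*, -0.23 for *Mapk3* and -0.16 for *Map2k2*. With median-ratio scaling *Map2k2* was at -0.054 and no longer passed the threshold (adjusted p = 0.342, limma), while *Araf* and *Mapk3* kept their call.

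**Figure D4:**
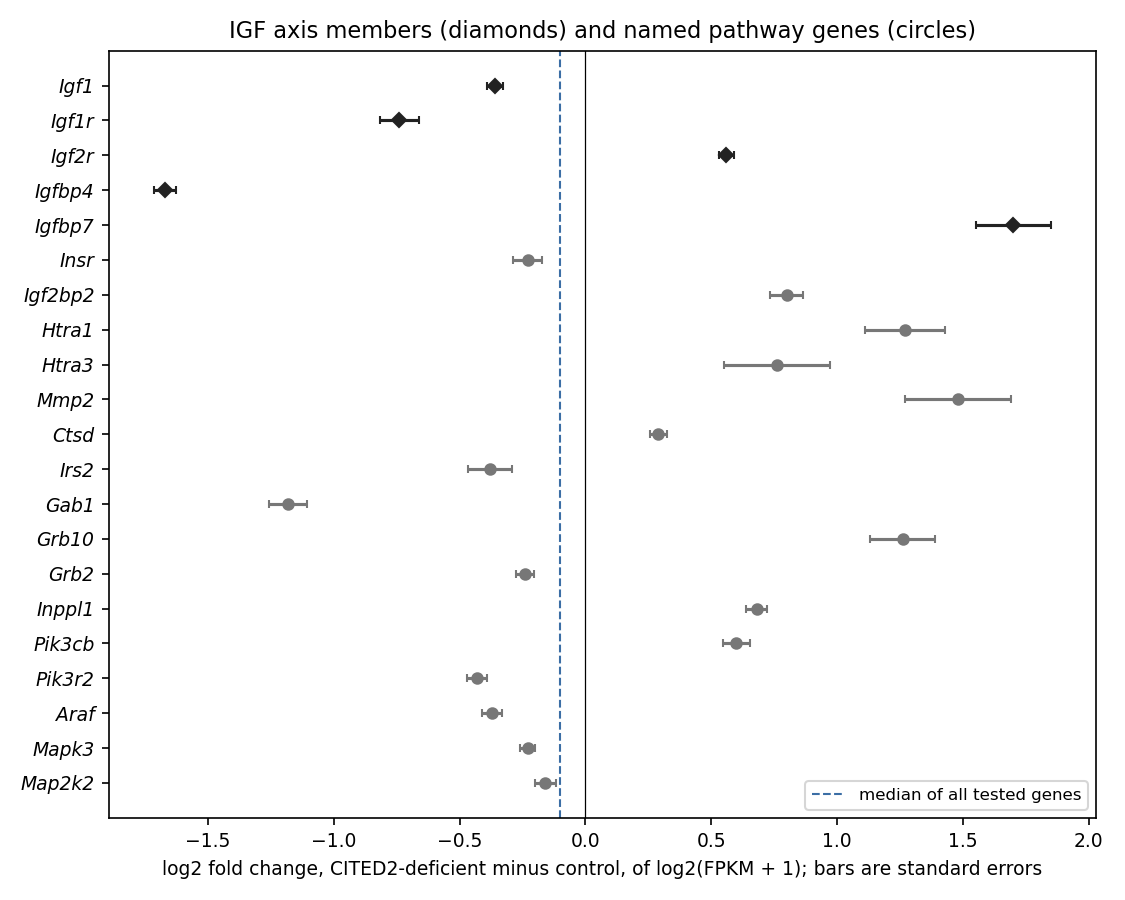
Log2 fold changes (CITED2-deficient minus control, horizontal axis) with standard errors for the 5 tested IGF axis members (diamonds) and the named pathway genes (circles), with the median of all tested genes, -0.10, as a dashed line. *Igfbp4* at -1.67 and *Igfbp7* at 1.70 lie farthest from it on either side, followed among pathway genes by *Mmp2*, *Htra1*, *Grb10* and *Gab1*.

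The tested genes whose profile over the 6 libraries was closest to each member were found by the root mean square difference between centred log2(FPKM + 1) values. For *Igf1* these were *Slc12a7*, *Ufl1* and *Ufc1*, at a difference of 0.013 to 0.016. *Clcn5*, *D930048N14Rik* and *Lifr* were closest to *Igf1r* (0.024 to 0.03), and *Sppl2a*, *Dock8* and *Msn* to *Igf2r* (0.02 to 0.023). *Ptgs1*, *Rasgrp3* and *Ednrb* were closest to *Igfbp4* (0.052 to 0.074), each with a log2 fold change between -1.72 and -1.67. For *Igfbp7* the closest genes were *Gm13835*, *Cyp1b1* and *Ctgf* at a larger difference of 0.077 to 0.14, and *Ctgf*, a matrix growth factor gene, was 10.5 to 12.1 FPKM in control and 32.5 to 46.6 FPKM in CITED2-deficient libraries.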

How the data were processed

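RNA of resting BMDMs was sequenced in 3 control and 3 CITED2-deficient libraries after ribosomal RNA removal. STAR was used for mapping to mm10, and the authors deposited 1 FPKM value per gene and library from Cuffdiff with GENCODE annotation, without pooling replicates. The sources used here give neither tool versions nor the annotation release.

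The FPKM were turned back into fragments with mean transcript lengths of GENCODE vM21, and 21374 of 22239 matched genes (96.1%) were within 0.02 of whole numbers in all 6 libraries. Replicates differed beyond sampling noise (mean chi-square per gene 2.26 to 5.86), so all were kept. Genes averaging 1 FPKM or more were compared as log2(FPKM + 1) in limma 3.58.1 (R 4.3.3, variance trend, Benjamini-Hochberg), without a fold threshold. Cuffdiff's own test needs alignments and was not repeated. The fit was tested on simulated data. Tables were summarised with Python 3.11.15 and pandas 2.3.3. The smallest exact permutation p for 3 against 3 libraries is 0.1.

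The members and gene lists were chosen with earlier results of these data known. Named genes are all members, *Cited2*, up to 4 called genes with the largest change per pathway list, genes tied to a member's role, and the 3 genes closest in profile to each called member. A few genes that the rule would name are not reported here. Others were chosen after their values were seen. Promoters came from RefSeq (14 windows matched the 10 members). Alternatives were pseudocounts of 0.5 and 0.1, no FPKM minimum or one of 5, median-ratio and quantile scaling, no trend, array weights, limma-voom on recovered fragments, a replicate block, each library left out, a fold of at least 2 and groups without overlap. For *Igfbp5* and *Igfbp3*, leaving out each library without the filter and limma-voom without the filter were added after seeing the data.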

Additional observations from a re-analysis of the deposited data

How the results depend on the processing

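The 5 tested members kept their direction and call under all 16 alternative fits, with log2 fold changes of -0.38 to -0.26 for *Igf1*, -0.87 to -0.65 for *Igf1r*, 0.55 to 0.67 for *Igf2r*, -1.72 to -1.57 for *Igfbp4* and 1.60 to 1.88 for *Igfbp7*. A fold change of at least 2 left 2 members (1 higher, 1 lower), 4 of the 31 called pathway genes and 615 of the 5994 called genes. The share of calls that were higher was 32.5% for all genes, 52.0% with median-ratio scaling (5186 calls) and 42.0% after quantile normalization (5390 calls). Leaving out each library gave 5 called members each time, 28 to 30 pathway genes and 5211 to 5475 genes. The labels do not say whether the replicate numbers pair the samples. Over all tested genes, same-numbered libraries did not deviate together (r = 0.01, 0.01 and 0.04). Such a correlation cannot exclude a pairing that affects only some genes. With a replicate block 5 members, 29 pathway genes and 5708 genes passed. Depth limits *Igf2*, *Igfbp2*, *Igfbp3* and *Igfbp6*, and the *Igfbp5* call without the filter was lost in 5 of 6 fits that left out a library.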
